A study of Mus musculus with 15 samples.

Results

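Lrrtm1, Lrrtm2, Lrrtm3, Lrrtm4, Nrxn2, Nrxn3, Nlgn1, Nlgn2 and Nlgn3 encode adhesion proteins that join the 2 sides of a synapse, and their levels are described here in cells of mouse brain tumours and of untransformed neural cultures. The 9 genes were taken by symbol: all 26 probe sets that the platform annotation assigns to one of them were kept, of 45037 probe sets and 18193 named genes on the arrays. A probe set is a group of short oligonucleotides that reads 1 transcript or a few. Of the 26, 17 passed a filter on dim signal, and each of the 9 genes kept at least 1 probe set. The genes were selected on results of these arrays: the difference between side population and non-side population cells, averaged over origins, had singled out Lrrtm1, and its family and partners were added, so that difference is given as a description with no test.

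The study sorted cultured cells by flow cytometry into a side population (SP), which excludes a DNA dye through ABC transporters, and the non-side population (non-SP). Every group carried the S100beta-verbB transgene, in which the promoter of the glial gene S100beta drives verbB, a viral oncogene related to the EGF receptor, and was p53-/- or p53+/-; the labels do not say which array had which p53 genotype. Tumorspheres named 3447 and 4346 were each grown from a brain tumour, put into the brain of immunodeficient hosts (strain NOD.Cg-Prkdc<scid>Il2rg<tm1Wjl>/SzJ), and cultured again from 3 hosts per line before sorting. The groups were 3447 SP, 3447 non-SP, 4346 SP, neurosphere SP and neurosphere non-SP, with 3 arrays each, where the neurospheres came from 3 untransformed mice of the same genotypes (a further sentence of the design text speaks of mice injected with neurospheres, so their passage through a host is uncertain). Each line stands for 1 tumour, ages were not given, and the arrays of a line are mice that received the same cells, so p-values between groups measure the spread between these arrays. Without 4346 non-SP cells, sorting can be compared in line 3447 and in neurospheres.

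Neurexins sit mainly on the presynaptic membrane and reach across the synaptic cleft to several families of partners. Neuroligins and the leucine-rich repeat transmembrane (Lrrtm) proteins are 2 families of such partners on the postsynaptic side; neuroligin 1 is known from excitatory synapses, neuroligin 2 from inhibitory ones, and Lrrtm4 also binds heparan sulphate proteoglycans such as glypicans. Outside neurons, neuroligins and neurexins are made by astrocytes and by cells of the oligodendrocyte lineage, and a shed part of neuroligin 3 is known to promote glioma growth in mice.

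RefSeq promoter sequence (GRCm38.p6) was found for 6 of the 9 genes, in 10 windows, and the 250 bases before an annotated transcript start are shown for 3 of them: Lrrtm1, the gene that set the choice of genes, and Lrrtm4 and Nlgn2, both higher in tumour cells below. Capitals mark matches on either strand. The first motif is TATAAA, the core of the box from which many transcripts start. The second and the third are E-boxes, to which basic helix-loop-helix factors bind, with either CAGCTG as the plain form or, in the variant with another centre, CAGGTG as its letters. The last is the GC box, GGCGGG in letters, bound by Sp family factors. No base lay in more than 1 match.
Lrrtm1, chr6:77242227-77242476, plus strand: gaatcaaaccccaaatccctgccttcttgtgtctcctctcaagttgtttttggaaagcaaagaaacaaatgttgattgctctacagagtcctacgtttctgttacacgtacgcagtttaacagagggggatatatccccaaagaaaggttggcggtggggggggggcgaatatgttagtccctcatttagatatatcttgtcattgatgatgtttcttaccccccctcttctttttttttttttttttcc
Lrrtm4, chr6:80018627-80018876, plus strand: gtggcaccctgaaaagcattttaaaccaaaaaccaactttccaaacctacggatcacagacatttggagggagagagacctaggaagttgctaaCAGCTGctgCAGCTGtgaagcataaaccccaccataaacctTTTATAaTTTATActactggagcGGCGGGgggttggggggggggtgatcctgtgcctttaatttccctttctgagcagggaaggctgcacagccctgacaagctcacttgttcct
Nlgn2, chr11:69837785-69838034, minus strand: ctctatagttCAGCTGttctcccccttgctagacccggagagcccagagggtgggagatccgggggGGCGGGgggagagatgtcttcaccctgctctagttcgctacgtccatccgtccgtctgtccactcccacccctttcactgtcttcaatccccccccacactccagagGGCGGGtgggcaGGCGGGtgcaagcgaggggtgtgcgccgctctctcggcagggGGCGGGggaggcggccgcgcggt
The Lrrtm1 window lies inside the gene's annotated span, before an internal transcript start. It held none of these letters, 5 CpG and 42% GC content. The Lrrtm4 window shown held 2 TATA boxes, both on the other strand, 2 plain E-boxes, 1 GC box and 3 CpG, with a GC content of 49.2%. The second Lrrtm4 window (chr6:80019393-80019642) held 0 TATA boxes, 1 plain E-box, 0 GC boxes and 8 CpG, with a GC content of 54%. The Nlgn2 window had 4 GC boxes, 1 plain E-box and 18 CpG, at 67.6% GC content. Over all 32851 windows of the same length, 12.4% held a TATA box, 13.0% the plain E-box, 17.2% the variant E-box and 32.5% a GC box, with a median of 6 CpG and 52.4% GC content. A match is a description of letters, and no match says only that they were not in this window.

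Values are MAS5 signals as deposited, on a linear scale on which each array has a trimmed mean of 500.003. Differences are log2 differences after quantile normalization and the addition of 16, with their standard error, and they understate the change of dim genes. A gene was called when its brightest probe set had an adjusted p below 0.05 (limma, Benjamini-Hochberg over 26253 probe sets). As a floor, 15 probe sets for bacterial transcripts were used, a choice made after the data had been seen; the brightest of them had a signal of 10.3 to 40.7 on 14 arrays and 79.2 on 3447 SP array 3. That array also had the highest median signal (89.3, against 40.0 to 68.1 on the others). Array 3 of 4346 SP stood apart by an actin 3′ to 5′ ratio of 5.30, against 2.49 to 3.29 on the other arrays. Called genes are given without these arrays where that changed a call.

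**Figure D1:**
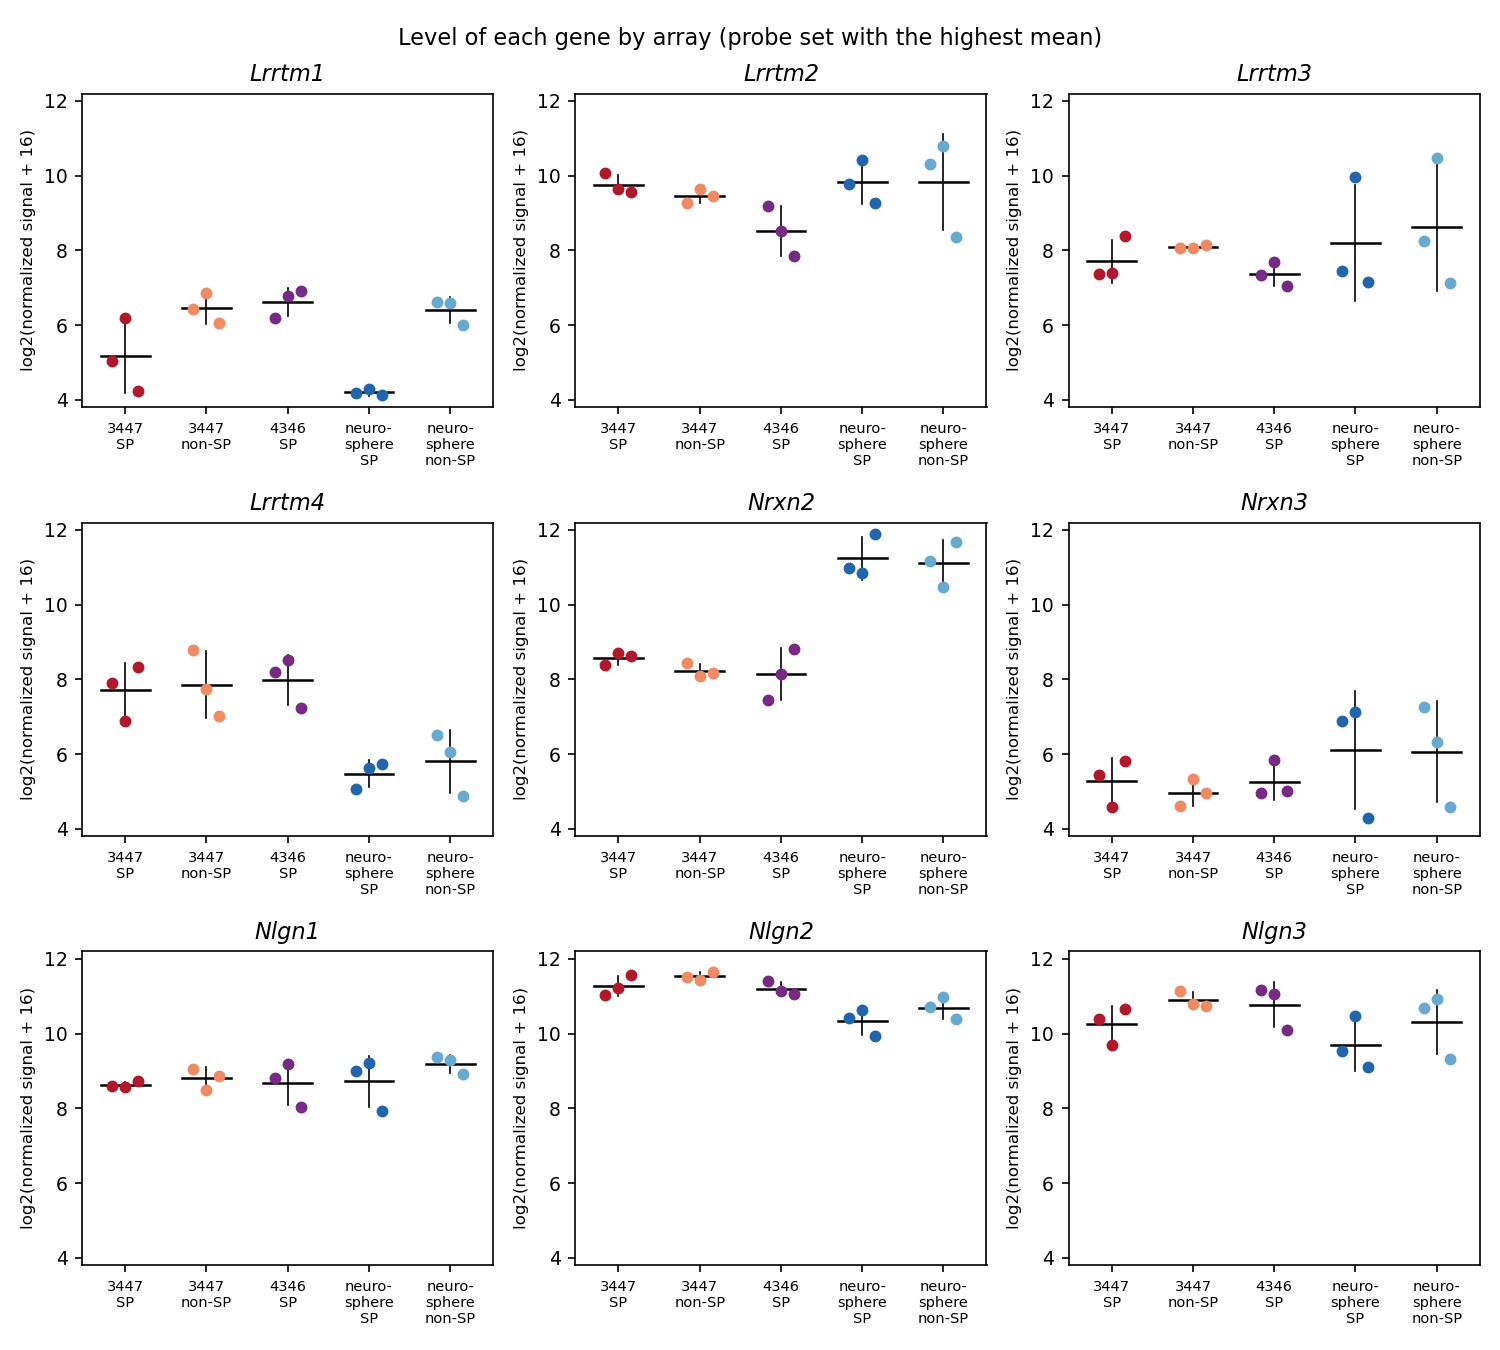
Level of each gene on each array, as log2 of the normalized signal plus 16, on its brightest probe set, with 3 arrays in each of the 5 groups; the horizontal line is the group mean and the vertical line its SD. Nrxn2 lies lower and Lrrtm4 and Nlgn2 lie higher in all 9 tumour arrays than in all 6 neurosphere arrays, and Lrrtm1 has its lowest group mean in neurosphere SP, whose arrays overlap with 3447 SP array 3 on this scale.

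Against neurosphere cells of the same sort, 3 genes passed the test in each of the 3 tumour groups: Lrrtm4 and Nlgn2 rose and Nrxn2 fell. Lrrtm1 in 3447 SP and 4346 SP is not counted here, since both comparisons use the neurosphere SP arrays whose low values helped to choose the gene. Although the fit put Lrrtm1 in 4346 SP below the threshold too, both differences are given further down as a description. In 3447 SP, with Lrrtm1 left out, 2 of the other 8 genes were higher and 1 lower. There 18.6% of the 11908 tested genes passed, 10.3% higher and 8.34% lower. In 4346 SP, with Lrrtm1 left out, 2 of the other 8 were higher and 1 lower, where 23.5% of all tested genes passed, 13.6% higher and 9.87% lower. In 3447 non-SP 2 of 9 were higher and 1 lower, where 18.6% passed, 10.7% higher and 7.84% lower. With 9 genes chosen on results of these arrays, these counts are not read as a property of the gene family. The median log2 difference over the 9 genes was -0.06 in 3447 SP, -0.05 in 4346 SP and -0.38 in 3447 non-SP, beside -0.03, 0.02 and 0.04 over all tested genes. The 3447 SP and 4346 SP comparisons share the neurosphere SP arrays, so they do not support each other independently.

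Nrxn2 encodes a neurexin, the presynaptic side of the pathway. On probe set 1435907_at its signal was 332, 420 and 386 in 3447 SP, 316, 262 and 278 in 3447 non-SP and 149, 256 and 434 in 4346 SP, against 2033, 1798 and 3747 in neurosphere SP and 2323, 1364 and 3255 in neurosphere non-SP. All 9 tumour arrays lay below all 6 neurosphere arrays, with 434 the highest of the tumour signals and 1364 the lowest of the neurosphere signals. The mean was 380 ± 44.1 in 3447 SP, 285 ± 27.9 in 3447 non-SP and 280 ± 144 in 4346 SP, against 2526 ± 1064 in neurosphere SP and 2314 ± 945 in neurosphere non-SP (SD, n = 3 each). The log2 difference was -2.66 ± 0.37 (adjusted p = 8.12e-05) for 3447 SP, -3.10 ± 0.37 (adjusted p = 1.77e-05) for 4346 SP and -2.87 ± 0.37 (adjusted p = 3.82e-05) for 3447 non-SP, from limma. Nrxn2 passed under each alternative setting that was run. It was above the array median on all 15 arrays, so the dim-signal filter played no part in its selection. A second probe set, 1455499_at, stayed between 1.60 and 17.4 on all arrays, failed the filter and carries no information on the difference.

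Nrxn3, the other neurexin analysed here, was near the floor and passed no test. Its brightest probe set, 1433788_at, read 33.2, 4.25 and 74.6 in 3447 SP, 4.52, 28.6 and 9.27 in 3447 non-SP and 9.66, 31.3 and 16.2 in 4346 SP, against 96.1, 123 and 4.07 in neurosphere SP and 134, 81.2 and 5.98 in neurosphere non-SP. It exceeded the array median on 4 of 15 arrays, which were numbers 1 and 2 of both neurosphere groups, while neurosphere number 3 was low in both sorts. The log2 difference was -0.83 ± 0.71 for 3447 SP (adjusted p = 0.490), -0.84 ± 0.71 for 4346 SP (adjusted p = 0.442) and -1.09 ± 0.71 for 3447 non-SP (adjusted p = 0.355) in limma. Probe set 1456137_at, the only other of 5 to pass the filter, gave -0.79 ± 0.52, -0.96 ± 0.52 and -0.88 ± 0.52 in the same order and passed no test.

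Lrrtm4, a postsynaptic partner of neurexins and glypicans, had the opposite direction to Nrxn2. On probe set 1437214_at the signal was 239, 97.0 and 320 in 3447 SP, 420, 203 and 112 in 3447 non-SP and 274, 346 and 130 in 4346 SP, against 17.8, 31.9 and 42.2 in neurosphere SP and 72.2, 64.7 and 10.9 in neurosphere non-SP. The tumour arrays began at 97.0 and the neurosphere arrays ended at 72.2, so the groups did not overlap. It was higher on the log2 scale by 2.23 ± 0.51 for 3447 SP (adjusted p = 0.00660), 2.52 ± 0.51 for 4346 SP (adjusted p = 0.00242) and 2.04 ± 0.51 for 3447 non-SP (adjusted p = 0.0114), from limma. The second probe set, 1455937_at, read 125, 47.4 and 228 in 3447 SP, 169, 113 and 59.9 in 3447 non-SP and 205, 130 and 102 in 4346 SP, against 1.47, 12.7 and 20.4 in neurosphere SP and 58.8, 5.70 and 2.28 in neurosphere non-SP. It gave 2.31 ± 0.54 (adjusted p = 0.00752), 2.67 ± 0.54 (adjusted p = 0.00228) and 2.03 ± 0.54 (adjusted p = 0.0162) for 3447 SP, 4346 SP and 3447 non-SP in limma. Both probe sets of the gene therefore passed in the 3 comparisons. Lrrtm4 passed the dim-signal filter on 10 arrays, of which 9 were tumour arrays, so a gene that entered in this way was likely to differ. The 3447 non-SP call was lost without 3447 non-SP replicate 1 (1.56, adjusted p = 0.0753, limma) and without neurosphere non-SP replicate 3 (1.57, adjusted p = 0.0558, limma).

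Nlgn2, the neuroligin of inhibitory synapses, was higher in tumour cells by less than Lrrtm4. Its signal on 1455143_at was 2104, 2431 and 2933 in 3447 SP, 2955, 2755 and 3161 in 3447 non-SP and 2711, 2285 and 2138 in 4346 SP, against 1364, 1555 and 941 in neurosphere SP and 1698, 1958 and 1335 in neurosphere non-SP. The lowest tumour array (2104) was above the highest neurosphere array (1958). The mean was 2490 ± 418 in 3447 SP, 2957 ± 203 in 3447 non-SP and 2378 ± 297 in 4346 SP, against 1287 ± 314 in neurosphere SP and 1664 ± 313 in neurosphere non-SP (SD, n = 3 each). On the log2 scale it was higher by 0.95 ± 0.22 for 3447 SP (adjusted p = 0.00599), 0.88 ± 0.22 for 4346 SP (adjusted p = 0.00870) and 0.84 ± 0.22 for 3447 non-SP (adjusted p = 0.0129) in limma. The 3447 non-SP call was lost without 3447 non-SP replicate 3 (0.78, adjusted p = 0.0580, limma) and without neurosphere non-SP replicate 3 (0.68, adjusted p = 0.0610, limma), and the 4346 SP call when its 2 groups were fitted alone (0.88, adjusted p = 0.0540, limma). Probe set 1460013_at failed the filter, at 4.24 to 57.0.

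**Figure D2:**
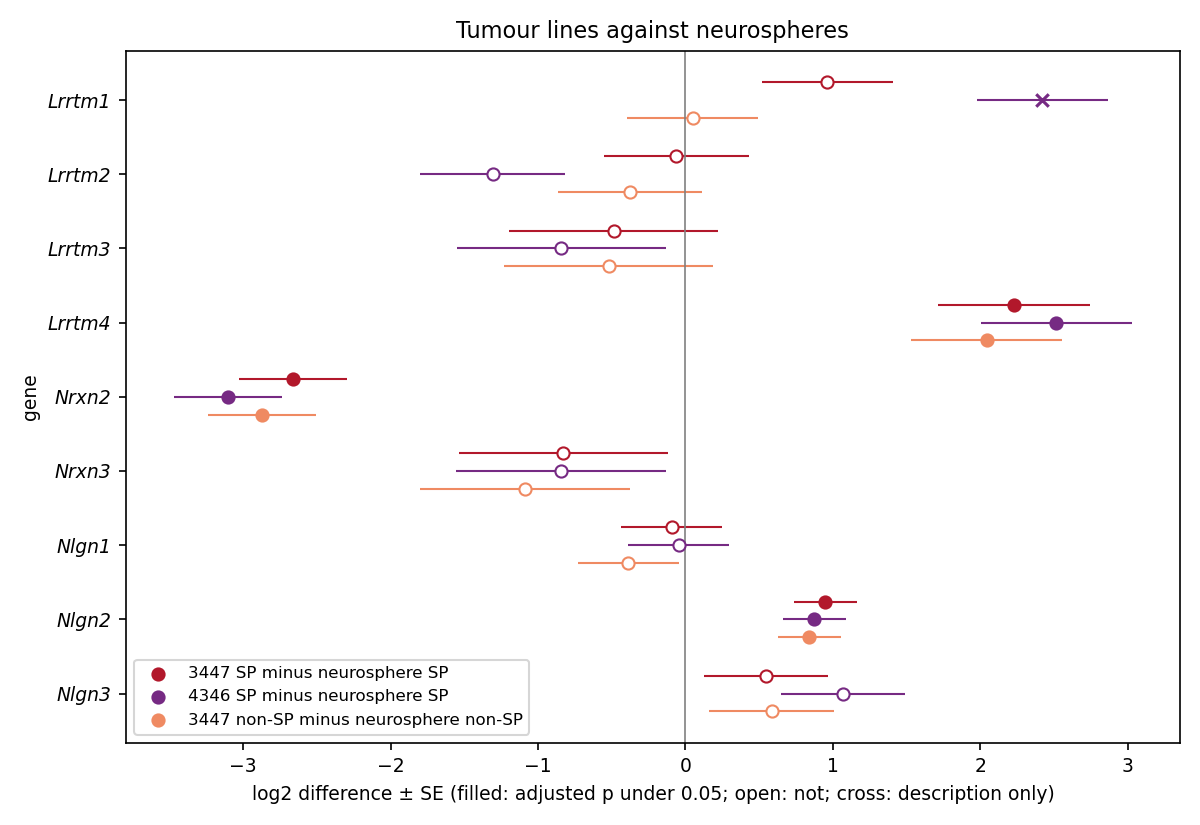
Log2 difference of the 9 genes between tumour cells and neurosphere cells of the same sort, with its standard error, for 3447 SP, 4346 SP and 3447 non-SP; filled points have an adjusted p below 0.05. Lrrtm4 and Nlgn2 lie right of 0 and Nrxn2 left of 0 in the 3 comparisons, and the cross is Lrrtm1 in 4346 SP at 2.42, which is given as a description and not as a call.

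Nlgn3, the neuroligin whose shed part was named above, gave different answers by probe set. The brightest, 1436135_at, read 1344, 842 and 1572 in 3447 SP, 2261, 1770 and 1710 in 3447 non-SP and 2318, 2146 and 1068 in 4346 SP, against 705, 1404 and 518 in neurosphere SP and 1650, 1891 and 625 in neurosphere non-SP. These groups overlapped, and the log2 difference was 0.55 ± 0.42 for 3447 SP (adjusted p = 0.434), 1.07 ± 0.42 for 4346 SP (adjusted p = 0.0865) and 0.59 ± 0.42 for 3447 non-SP (adjusted p = 0.410) in limma. Probe set 1456384_at read 848, 478 and 956 in 3447 SP, 1270, 987 and 832 in 3447 non-SP and 1311, 1097 and 1069 in 4346 SP, against 304, 524 and 226 in neurosphere SP and 750, 559 and 325 in neurosphere non-SP. It passed in 4346 SP (1.72 ± 0.35, adjusted p = 0.00252) and missed the threshold in 3447 SP (1.05 ± 0.35, adjusted p = 0.0542) and in 3447 non-SP (0.95 ± 0.35, adjusted p = 0.0838) in limma. The dimmest probe set, 1453756_at, passed in none, at -0.19 ± 0.43, 0.38 ± 0.43 and 0.23 ± 0.43 for 3447 SP, 4346 SP and 3447 non-SP. On the brightest probe set Nlgn3 was called in 4346 SP without 4346 SP replicate 3 (1.41, adjusted p = 0.0434, limma), without neurosphere SP replicate 2 (1.46, adjusted p = 0.0337, limma) and without neurosphere non-SP replicate 3 (1.07, adjusted p = 0.0422, limma).

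Nlgn1, the neuroligin of excitatory synapses, had means of 391 ± 17.1 in 3447 SP, 442 ± 83.1 in 3447 non-SP and 409 ± 160 in 4346 SP, against 423 ± 177 in neurosphere SP and 577 ± 98.5 in neurosphere non-SP (1437160_at; SD, n = 3 each). It spanned 239 to 557 over the tumour arrays and 226 to 653 over the neurosphere arrays, so the ranges lay over each other. No test passed, with log2 differences of -0.09 ± 0.34, -0.05 ± 0.34 and -0.39 ± 0.34 for 3447 SP, 4346 SP and 3447 non-SP and adjusted p of 0.894, 0.945 and 0.514 in limma. With these errors, a missed threshold does not show that the groups were alike.

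Lrrtm2, which like Lrrtm1 binds neurexins, had the lowest signals in 4346 SP. Probe set 1455489_at read 1077, 813 and 735 in 3447 SP, 596, 793 and 700 in 3447 non-SP and 573, 344 and 206 in 4346 SP, against 843, 1352 and 583 in neurosphere SP and 1279, 1728 and 308 in neurosphere non-SP. The 4346 SP arrays lay just below the neurosphere SP arrays, with the nearest pair at 573 and 583. The log2 difference was -1.31 ± 0.49 for 4346 SP (adjusted p = 0.0713), -0.06 ± 0.49 for 3447 SP (adjusted p = 0.954) and -0.38 ± 0.49 for 3447 non-SP (adjusted p = 0.680) in limma. It passed in 4346 SP without 4346 SP replicate 1 (-1.64, adjusted p = 0.0435, limma), without neurosphere non-SP replicate 2 (-1.31, adjusted p = 0.0474, limma) and without neurosphere non-SP replicate 3 (-1.31, adjusted p = 0.0129, limma). The 2 dimmer probe sets gave -0.59 ± 0.63 and -0.62 ± 0.52 in 4346 SP and passed no test.

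Lrrtm3, the Lrrtm gene with 4 probe sets here, varied most within the neurospheres. Its brightest, 1434760_at, read 167, 150 and 329 in 3447 SP, 239, 259 and 272 in 3447 non-SP and 137, 177 and 110 in 4346 SP, against 149, 970 and 127 in neurosphere SP and 285, 1380 and 112 in neurosphere non-SP. Neurosphere number 2 was the high array in both sorts, and it was so on each of the 4 probe sets. The log2 difference was -0.49 ± 0.71, -0.84 ± 0.71 and -0.52 ± 0.71 for 3447 SP, 4346 SP and 3447 non-SP, with adjusted p of 0.706, 0.440 and 0.696 in limma.

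Lrrtm1 had signals of at most 106. On probe set 1455883_a_at, which reads several transcripts of the gene, the signal was 21.4, 48.1 and 10.1 in 3447 SP, 55.9, 106 and 41.3 in 3447 non-SP and 45.4, 83.7 and 96.6 in 4346 SP, against 1.93, 3.17 and 1.55 in neurosphere SP and 80.3, 98.7 and 41.0 in neurosphere non-SP. The means were 26.5 ± 19.5, 67.8 ± 34.1 and 75.2 ± 26.6 in 3447 SP, 3447 non-SP and 4346 SP, against 2.22 ± 0.844 in neurosphere SP and 73.3 ± 29.4 in neurosphere non-SP (SD, n = 3 each). The neurosphere SP arrays stood lowest in deposited signal. The signal was above the array median on 8 of 15 arrays and above the brightest bacterial probe set on 10, which were 1 of the 3447 SP arrays, all 3447 non-SP, all 4346 SP and all neurosphere non-SP arrays.

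Set against neurosphere SP, the log2 difference of Lrrtm1 in 4346 SP was 2.42 ± 0.45 with 16 added and 1.15 ± 0.23 with 64 added, and the groups did not overlap. It is a description and not read as a call, since the neurosphere SP arrays also entered the result that singled Lrrtm1 out, and its size depends on the added constant because 0 of the 3 neurosphere SP arrays were above the brightest bacterial probe set. For 3447 SP the difference was 0.96 ± 0.45, and 1.40 ± 0.43 without 3447 SP replicate 3, the array with the bright background. Both groups of arrays entered the choice of Lrrtm1, so these values too are a description and not read as a call. In non-SP cells, where 3447 and neurospheres both had signals of 41.0 or more, it was 0.05 ± 0.45 (adjusted p = 0.961, limma).

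The other 2 probe sets of Lrrtm1 failed the filter. Probe set 1437746_at stayed between 15.2 and 68.2 and its differences between SP and non-SP cells were -0.09 ± 0.36 in 3447 and -0.16 ± 0.36 in neurospheres. Probe set 1452624_at stayed between 0.993 and 36.5, below the array median on all 15 arrays, with 0.04 ± 0.40 in 3447 and -0.80 ± 0.40 in neurospheres. In neurospheres its SP arrays lay below its non-SP arrays. However, 0 of 3 arrays of either neurosphere group were above the brightest bacterial probe set, so it gives no second reading. The difference thus rests on 1 probe set of 3, in line 3447 and in neurospheres.

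**Figure D3:**
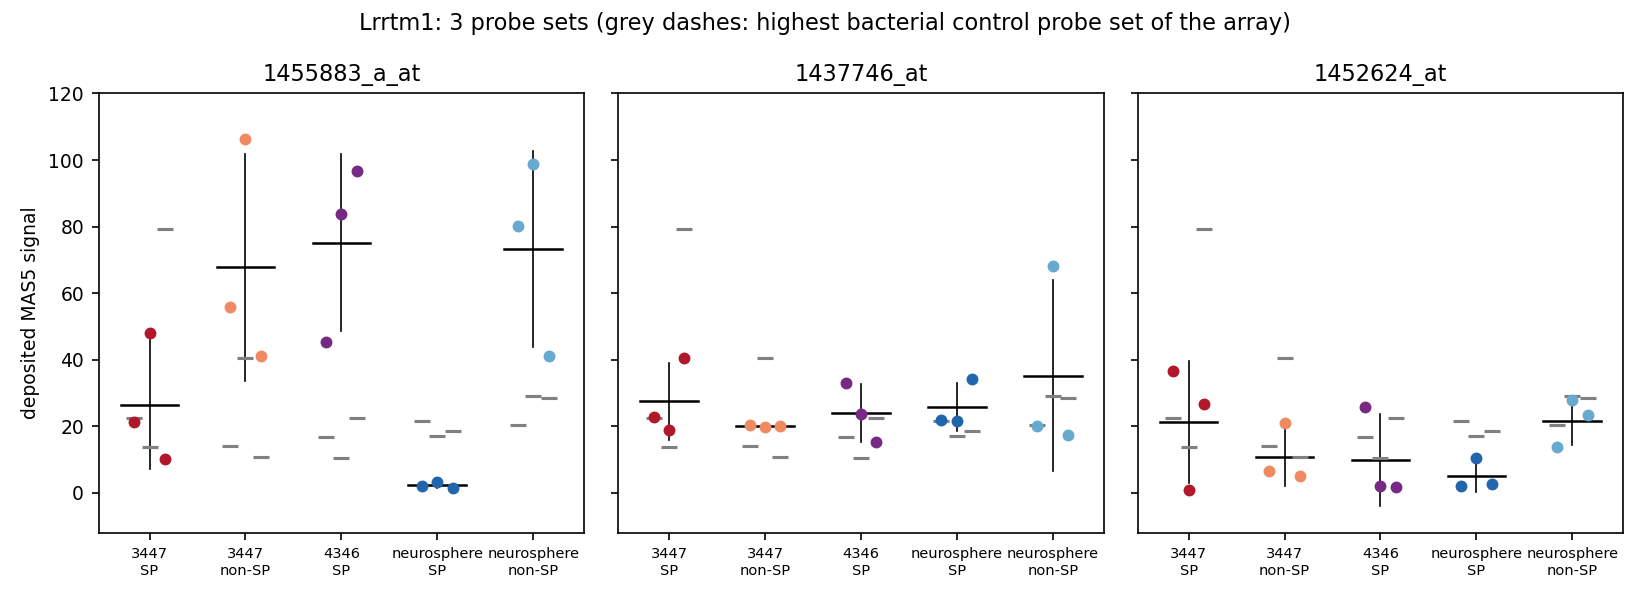
Deposited signal of the 3 probe sets of Lrrtm1 on each array, with the group mean and SD in black; grey dashes are the brightest bacterial control probe set of the same array. On 1455883_a_at the neurosphere SP arrays lie at 1.55 to 3.17, below their grey dashes, while the neurosphere non-SP arrays lie at 41.0 to 98.7, above them.

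SP cells were next set against non-SP cells of the same origin, as a description with no test. In line 3447, 6 of the 9 genes had a log2 difference below 0 and the median was -0.18, beside -0.01 over all tested genes. In neurospheres 7 of 9 were below 0 and the median was -0.37, beside 0.04 over all tested genes. Lrrtm1, chosen on the average of these differences, was below 0 in both origins and is part of these counts and medians. The groups did not overlap for 1 of 9 genes in line 3447, Nlgn3, where 17.6% of all tested genes did not overlap. In neurospheres, where 7.58% of all tested genes did not overlap, this held for Lrrtm1 alone. Its choice on these arrays made that likely, so it is not set against that share.

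Lrrtm1 was lower in SP by 1.28 on the log2 scale in line 3447 (-1.28 ± 0.45) and was at -2.20 ± 0.45 in neurospheres, with an average of -1.74 ± 0.32. Within equally numbered arrays the difference ran from -1.80 to -0.67 in line 3447 and from -2.45 to -1.87 in neurospheres. Equal numbers paired in neurospheres but not in line 3447, so in that line they are an arbitrary matching of the arrays. In line 3447 the groups overlapped, since 3447 SP array 2 (48.1) lay above 3447 non-SP array 3 (41.3).

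On their brightest probe sets, Nlgn2 and Nlgn3 were also lower in each SP array than in the non-SP array of the same number, in both origins. In line 3447 this depends on the numbering for Nlgn2 but not for Nlgn3. There the Nlgn2 groups overlapped, since 3447 SP array 3 (2933) lay above 3447 non-SP array 2 (2755). For Nlgn2 the difference was -0.26 ± 0.22 in line 3447 and -0.37 ± 0.22 in neurospheres, smaller than its difference between tumour and neurosphere cells. For Nlgn3 it was -0.64 ± 0.42 in line 3447, where the 3 SP arrays (842 to 1572) lay below the 3 non-SP arrays (1710 to 2261), and -0.61 ± 0.42 in neurospheres. The other probe sets of Nlgn3 were less uniform. In line 3447, 1456384_at overlapped (-0.47 ± 0.35), with number 3 at 0.26, and 1453756_at did not (-0.96 ± 0.43). On 3447 SP array 3, 1453756_at read 34.6, below the brightest bacterial probe set of that array (79.2). In neurospheres 1456384_at and 1453756_at were at -0.57 ± 0.35 and -0.53 ± 0.43 with overlap, and pair 2 of 1453756_at was at 0.01.

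Lrrtm3 was -0.39 ± 0.71 in line 3447 and -0.42 ± 0.71 in neurospheres on its brightest probe set, with the groups overlapping. Its dimmer probe sets 1434761_at and 1434759_at were lower in 3447 SP with no overlap, at -0.98 ± 0.58 and -0.82 ± 0.58. On 3447 SP array 3, the array with the bright background, they read 22.7 and 17.8, below its brightest bacterial probe set (79.2). Their log2 values there were 4.81 and 4.60, against 6.27 and 6.39, and 5.80 and 5.79, on the other 3447 SP arrays. That array thus enlarged both differences. Nlgn1 was -0.18 ± 0.34 in line 3447 and -0.47 ± 0.34 in neurospheres. Lrrtm2 (0.31 ± 0.49 and -0.00 ± 0.49), Lrrtm4 (-0.15 ± 0.51 and -0.33 ± 0.51), Nrxn2 (0.34 ± 0.37 and 0.13 ± 0.37) and Nrxn3 (0.31 ± 0.71 and 0.05 ± 0.71) differed by less than their standard error in line 3447 and in neurospheres.

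**Figure D4:**
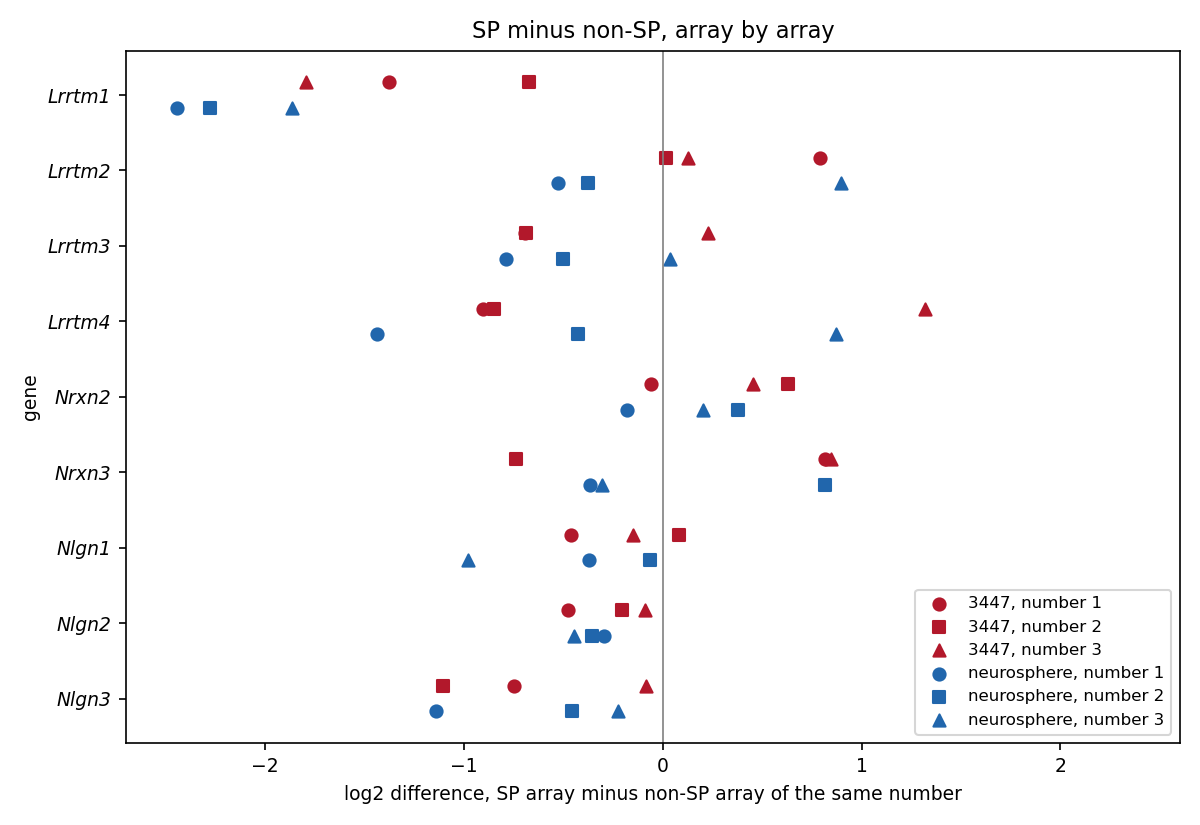
Log2 difference between the SP array and the non-SP array of the same number, for the 9 genes in line 3447 (red) and neurospheres (blue); the marker shape gives the number. On the brightest probe set of each gene, Lrrtm1, Nlgn2 and Nlgn3 lie left of 0 for all 6 differences, and Lrrtm1 in neurospheres lies furthest left, between -2.45 and -1.87. Equal numbers did not pair in line 3447, so its points show an arbitrary matching of arrays.

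The effect of sorting in line 3447 minus that in neurospheres passed for 0 of 9 genes and for 0% of all tested genes in limma. At an unadjusted p below 0.05 it held for 0 of the 9 genes and for 2.49% of all probe sets (654 of 26253). For Lrrtm1 the difference of effects was 0.91 ± 0.63 (adjusted p = 1.00, limma), so the smaller difference in line 3447 was not shown to differ from that in neurospheres. The fit treated all arrays as independent, although equally numbered neurosphere arrays paired, so this test can miss differences.

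Between the tumour lines, 3447 SP against 4346 SP, 0 of 9 genes passed, where 1.53% of all tested genes passed in limma. With Lrrtm1 left out of the count, an unadjusted p below 0.05 held for Lrrtm2 alone. It held for 15.4% of all probe sets (4050 of 26253), a share of probe sets and not of genes. Lrrtm2 was at 1.25 ± 0.49 (adjusted p = 0.242, limma). Lrrtm1 was at -1.46 ± 0.45, a description only, since the 3447 SP arrays entered the choice of that gene. The groups did not overlap for 1 of 9 genes, where 19.7% of all tested genes did not overlap. This was Lrrtm2, whose 3447 SP signals (735 to 1077) lay above its 4346 SP signals (206 to 573).

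Other genes of the pathway were taken from lists chosen with earlier results known. Of 31 further neurexin ligands and organisers, 29 had a probe set and 19 were tested: 6 rose and 5 fell in 3447 SP, 7 rose and 3 fell in 4346 SP, and 6 rose and 4 fell in 3447 non-SP, against neurospheres. The list's median log2 difference was 0.45 in 3447 SP, 0.58 in 4346 SP and 0.05 in 3447 non-SP, beside the medians of all tested genes given above. Of all tested genes, 10.3% rose and 8.34% fell in 3447 SP, 13.6% and 9.87% in 4346 SP, and 10.7% and 7.84% in 3447 non-SP. In the list's comparison of 3447 SP with 4346 SP, 0 rose and 2 fell, where 1.53% of all tested genes passed.

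Adgrl2, a latrophilin, an adhesion receptor that binds teneurins, had the largest of the list's differences in line 3447. Its mean signal was 73.3 ± 53.7 in 3447 SP, 9.07 ± 11.7 in 3447 non-SP and 2271 ± 1237 in 4346 SP, against 7925 ± 1341 in neurosphere SP and 7959 ± 1638 in neurosphere non-SP (SD, n = 3 each). The log2 difference was -6.85 ± 0.43 in 3447 SP (adjusted p = 1.38e-08, limma) and -8.36 ± 0.43 in 3447 non-SP (adjusted p = 1.15e-09, limma) against neurospheres, and -4.92 ± 0.43 in 3447 SP against 4346 SP (adjusted p = 5.33e-06, limma).

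Cbln1 encodes a secreted bridge between neurexins and a glutamate receptor of the delta class. Its mean signal was 2039 ± 1094 in 3447 SP, 3465 ± 1111 in 3447 non-SP and 872 ± 60.8 in 4346 SP, against 99.0 ± 63.2 in neurosphere SP and 367 ± 201 in neurosphere non-SP (SD, n = 3 each). It rose by 4.27 ± 0.52 in 3447 SP (adjusted p = 2.32e-05, limma), 3.17 ± 0.52 in 4346 SP and 3.28 ± 0.52 in 3447 non-SP on the log2 scale.

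Gpc4 encodes a glypican, a heparan sulphate proteoglycan that binds Lrrtm4. Its mean signal was 119 ± 47.4 in 3447 SP, 81.1 ± 56.0 in 3447 non-SP and 673 ± 230 in 4346 SP, against 1686 ± 1152 in neurosphere SP and 1051 ± 686 in neurosphere non-SP (SD, n = 3 each). On the log2 scale it differed by -3.61 ± 0.49 in 3447 SP and -3.26 ± 0.49 in 3447 non-SP against neurospheres, and -2.45 ± 0.49 in 3447 SP against 4346 SP (adjusted p = 0.0216, limma). In line 3447 Gpc4 was thus low and Lrrtm4 high.

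C1ql1, a secreted synapse organiser related to the cerebellins, averaged 324 ± 178 in 3447 SP, 310 ± 23.4 in 3447 non-SP and 691 ± 323 in 4346 SP, against 20.5 ± 25.0 in neurosphere SP and 29.1 ± 7.20 in neurosphere non-SP (SD, n = 3 each). In 4346 SP it was higher by 4.40 ± 0.45 on the log2 scale. Tenm4, a teneurin, which belongs to the ligands of the latrophilins, was higher by 3.15 ± 0.37 in 4346 SP, with means of 2295 ± 665 in 3447 SP, 1602 ± 236 in 3447 non-SP and 2890 ± 1358 in 4346 SP, against 269 ± 40.6 in neurosphere SP and 232 ± 74.3 in neurosphere non-SP (SD, n = 3 each). Both passed in 4346 SP in limma. C1ql1 was dim in neurospheres and, like Lrrtm4, passed the dim-signal filter through its tumour arrays, so it was likely to differ.

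Of 31 other synaptic adhesion genes, 22 were tested: 2 rose and 5 fell in 3447 SP, 1 rose and 3 fell in 4346 SP, and 1 rose and 4 fell in 3447 non-SP. Of all tested genes 18.6%, 23.5% and 18.6% passed in the same order. The list's median log2 difference was -0.25, -0.20 and -0.15. Ntng1 and Lrrc4c, a netrin-G and the netrin-G ligand it binds, fell together in the 3 comparisons. Ntng1 was at -2.37 ± 0.40, -2.12 ± 0.40 and -3.70 ± 0.40 in 3447 SP, 4346 SP and 3447 non-SP, and Lrrc4c at -1.98 ± 0.36, -1.04 ± 0.36 and -1.61 ± 0.36. Ntng1 was dim in tumour cells and needed its neurosphere arrays to pass the dim-signal filter, so it was likely to differ.

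Of 26 intracellular scaffold genes, 21 were tested: 2 rose and 3 fell in 3447 SP, 4 rose and 4 fell in 4346 SP, and 3 rose and 1 fell in 3447 non-SP. Beside these counts, 18.6%, 23.5% and 18.6% of all tested genes passed in the same order. The list's median log2 difference was -0.20, -0.09 and -0.13. Dlgap1, a postsynaptic density protein that binds PSD-95, rose by 2.92 ± 0.47 in 3447 SP (adjusted p = 4.03e-04, limma), 3.42 ± 0.47 in 4346 SP and 3.02 ± 0.47 in 3447 non-SP. Its mean signal was 1076 ± 361 in 3447 SP, 983 ± 440 in 3447 non-SP and 1609 ± 742 in 4346 SP, against 132 ± 79.5 in neurosphere SP and 108 ± 56.3 in neurosphere non-SP (SD, n = 3 each). Cask, the kinase-like scaffold that binds the neurexin tail, was higher in 3447 non-SP by 0.66 ± 0.13 on the log2 scale (5928 ± 462, against 3715 ± 306 in neurosphere non-SP). Its mean was also higher in the other tumour groups, at 4996 ± 663 in 3447 SP and 6210 ± 247 in 4346 SP, against 3544 ± 121 in neurosphere SP.

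Marker genes of cell types differed between the same groups, and their part in the results was not tested. The summed signal of 8 oligodendrocyte progenitor markers was 12381 to 17469 in 3447 SP, 19274 to 22225 in 3447 non-SP and 19402 to 24571 in 4346 SP, against 7121 to 12841 in neurosphere SP and 9544 to 13592 in neurosphere non-SP. In 3447 SP 5 of the 8 rose and 2 fell, in 4346 SP 5 rose and 1 fell, and in 3447 non-SP 4 rose and 1 fell. For this and each marker count below, 18.6%, 23.5% and 18.6% of all tested genes passed in these comparisons, in this order. The summed signal of 9 astrocyte markers was 11514 to 16899 in 3447 SP, 14752 to 17556 in 3447 non-SP and 17865 to 21041 in 4346 SP, against 24402 to 44165 in neurosphere SP and 23282 to 29882 in neurosphere non-SP. Of these 9, 1 rose and 5 fell in 3447 SP, 1 rose and 3 fell in 4346 SP, and 2 rose and 4 fell in 3447 non-SP. The members differed in direction. In the same order, S100b was at 4.09 ± 0.57, 3.91 ± 0.57 and 5.14 ± 0.57 on the log2 scale, and Mlc1 at -7.12 ± 0.42, -8.39 ± 0.42 and -7.69 ± 0.42.

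The 5 mature oligodendrocyte markers summed to 12894 to 17310 in 3447 SP, 16091 to 19732 in 3447 non-SP and 13893 to 19341 in 4346 SP, against 3307 to 6818 in neurosphere SP and 3120 to 4266 in neurosphere non-SP. Of these, 2 were tested: Mbp, a myelin protein gene, rose by 8.22 ± 0.34 in 3447 SP, 8.20 ± 0.34 in 4346 SP and 7.74 ± 0.34 in 3447 non-SP on the log2 scale, and Cnp passed in 4346 SP (0.78 ± 0.21) and in 3447 non-SP (1.15 ± 0.21). Mbp was at most 57.0 on the neurosphere arrays. It passed the dim-signal filter through its tumour arrays, so it was likely to differ. The late markers Mag, Mobp and Mog stayed at or below 30.9 on every array.

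The 5 neural stem and progenitor markers summed to 32255 to 33781 in 3447 SP, 35544 to 38227 in 3447 non-SP and 32084 to 33998 in 4346 SP, against 37066 to 49344 in neurosphere SP and 36375 to 45948 in neurosphere non-SP. All 5 were tested, and 0 rose, while 2 fell in 3447 SP, 3 in 4346 SP and 2 in 3447 non-SP. Nes, an intermediate filament gene of neural stem cells, was at -1.73 ± 0.24, -1.67 ± 0.24 and -1.56 ± 0.24 and the stem cell surface gene Prom1 at -3.65 ± 0.69, -3.71 ± 0.69 and -2.62 ± 0.69 in 3447 SP, 4346 SP and 3447 non-SP, and both passed in each. Prom1 was dim in tumour cells and passed the dim-signal filter through its neurosphere arrays, so it was likely to differ.

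The 15 neuronal markers summed to 5470 to 6603 in 3447 SP, 5617 to 8144 in 3447 non-SP and 4808 to 5839 in 4346 SP, against 6676 to 8673 in neurosphere SP and 10198 to 13028 in neurosphere non-SP. Of the 11 that were tested, 1 rose and 4 fell in 3447 SP, 1 rose and 4 fell in 4346 SP, and 1 rose and 5 fell in 3447 non-SP. Their highest signals on any array ran from 37.3 for Slc17a7, a vesicular glutamate transporter, and 41.2 for Stmn2 to 1468 for Elavl3, 2234 for Elavl4 and 7296 for Map2, so some neuronal markers were bright and others near the floor. The 6 microglial markers summed to 28.7 to 191 and the 5 endothelial markers to 54.6 to 234 over all arrays. In such sorted bulk cultures, fewer cells of a type and less RNA per cell cannot be told apart.

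For each of the 9 genes the genes with the most similar pattern were sought among 11356 named genes, by the root mean square difference of log2 values over the 15 arrays after centring. The nearest to Nrxn2 was Rbm24 at 0.374, over a range of Nrxn2 of 4.45. The nearest to Lrrtm4 was Spry3 at 0.378, over a range of 3.92, and the nearest to Nlgn2 was Castor2 at 0.172, over a range of 1.72. The nearest to Lrrtm1 was Helz2 at 0.619, over a range of 2.78, a looser likeness than for the other 8 genes. Prox1 (0.365) was nearest to Lrrtm2, Kcnk10 (0.531) to Lrrtm3, B3gat1 (0.326) to Nrxn3, Cacfd1 (0.212) to Nlgn1 and Pcdh17 (0.333) to Nlgn3.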

How the data were processed

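Gene expression was measured in FACS-sorted cells of 5 groups with 3 arrays each, after RNA isolation with the RNeasy Micro kit and amplification with the Ovation Pico kit, per the labels' protocols. The deposited values are intensities: MAS5 signals of 45101 probe sets, made with Affymetrix Expression Console per the submitters' processing notes whose version the sources used here do not give; the deposited intensities have a trimmed mean of 500.003 on every array (2% left out at each end). No detection calls and no scanner files were used here. Signals of all probe sets were quantile normalized, 16 was added and log2 taken, and 64 control probe sets were then left out. Probe sets above their array's median on at least 3 arrays (26253) were fitted with limma 3.58.1 (R 4.3.3): 5 group means, 10 residual degrees of freedom, intensity trend, two-sided tests, Benjamini-Hochberg adjustment at 0.05. The script was tested on simulated data. Genes were named from the platform annotation: 34945 probe sets had 1 symbol, 932 several and 9160 none; 34741 matched RefSeq GRCm38.p6 by Entrez ID, and 0 symbols changed. A gene was read on its probe set with the highest mean signal. Only 15 arrays limit the precision.

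Members, lists and tests were chosen with earlier results of these data known. Named genes were every probe set of the 9 genes, the 3 nearest genes in pattern, and from each list, per comparison, at most the 3 called genes with the largest difference whose groups did not overlap, of which the text gives a part. Equally numbered arrays were checked for pairing: deviations from the group means correlated at 0.484, 0.454 and 0.504 in neurospheres, so these numbers pair, as the data and not the labels show, and at -0.265, -0.258 and -0.158 in line 3447, where they do not. In that line SP 1 with non-SP 2, SP 2 with non-SP 3 and SP 3 with non-SP 1 correlated at 0.291, 0.243 and 0.190. A pairing under unequal numbers was not tested. Alternatives were the deposited scale, 64 added in place of 16, no filter, the compared groups alone, 1 probe set a gene, a replicate block and leaving out each array; leaving out 3447 SP array 3 with 4346 SP array 3 was added after seeing the data.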

Additional observations from a re-analysis of the deposited data

How the results depend on the processing

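With Lrrtm1 counted, the 3447 SP and 4346 SP counts of called genes among the 9 stayed at 3 to 4 and 4 to 6 when single arrays were left out; 3447 non-SP against neurosphere non-SP gave 1 to 3, with 1 without neurosphere non-SP replicate 3, and 3447 SP against 4346 SP gave 0 to 1, with Lrrtm1 below the threshold without 3447 SP replicate 2. The difference of sorting effects stayed at 0. With 64 added, Lrrtm1 in 4346 SP against neurosphere SP was 1.15 in place of 2.42, and Lrrtm1 in SP against non-SP moved to -0.64 in line 3447, -1.0 in neurospheres and -0.82 on average, as a larger constant shrinks differences of dim genes; with single arrays left out these ran from -1.79 to -0.83, -2.41 to -2.08 and -2.00 to -1.51. With the replicate block, the 3 tumour comparisons called 3, 4 (with Lrrtm1) and 3 of the 9 genes, as without it, and it changed no call among them. The block used 1 correlation for all arrays, while equal numbers correlated positively in neurospheres and negatively in line 3447. It therefore cannot show whether the calls depend on pairing. Without both 3447 SP array 3 and 4346 SP array 3, Lrrtm1 in 3447 SP was at 1.40, again a description. Nlgn3 passed in 4346 SP in that setting (1.41, adjusted p = 0.0472, limma). Over all settings 0 of 220 values of called results changed sign, with Lrrtm1 in 4346 SP counted. Of the other results, tested or only described, 73 of 1364 values did. Called results lay far from 0 and were unlikely to change sign, so nothing is concluded from this contrast. Over all probe sets, 4346 SP against neurosphere SP called 5206, against 3284 with its groups alone and 2896 with 1 probe set a gene, where fewer features were tested. In the same way 3447 SP called 3986 and 2342, and 3447 non-SP 3978 and 2323. The comparison of 3447 SP with 4346 SP called 316, against 163 with its groups alone, 202 with 1 probe set a gene, 91 without both arrays and 154 to 414 with single arrays left out. Other causes were not tested. Signals near the bacterial probe sets limit what Lrrtm1 and Nrxn3 can show.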
